A study of Mus musculus with 8 samples.

Results

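Lipg, Smpdl3b, Pla2g7 and Gm2a encode proteins that act on lipids and and whose levels in mouse blood neutrophils differed with LPS or set blood apart from marrow, and they are 4 of the 10970 genes in the table. They were chosen by name from their measured levels in peripheral blood (PB), so their PB values are a description and carry no test. Only the LPS effect within bone marrow (BM) was left to test for them. All 4 passed the filter on low counts that left 8478 genes for testing, Smpdl3b through LPS-primed PB alone. Close relatives and partners of these proteins were taken as a wider set of 122 lipid-enzyme genes in 7 lists, of which 99 are in the table and 85 were tested.

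The study asked how circulating neutrophils respond to lipopolysaccharide (LPS), the endotoxin of Gram-negative bacteria. Its methods describe male C57BL/6J mice of 7 to 12 weeks injected into the peritoneum with PBS or with LPS at 0.5 mg/kg, and neutrophils enriched from PB or BM by negative selection and picked singly by mouth pipette. The 4 groups were PBS-primed PB, LPS-primed PB, PBS-primed BM and LPS-primed BM neutrophils, all from mice without a genetic change as far as the sources state. In the labels PBS stands at 0 h and LPS at 4 h, whereas by the methods cells were prepared 4 h after either injection. Neither source gives the number of mice behind a sample. SCRB-seq, a plate method with a barcode per cell and a unique molecular identifier (UMI) per captured transcript, gave UMI counts for 1421 cells. Of these, 711 cells of batch 7 match the 8 labelled samples, 2 for each group, with 83 to 92 cells and 3240559 to 8361677 UMIs each. The other 710 cells come from batch 6, whose names show the group only, and their 9 plates are given as separate values without an SD. Each batch 7 sample is also a plate of its own, so p-values measure the spread between these samples, which may be technical.

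Neutrophils carry lipid-acting enzymes both for the turnover of their own membranes and for the control of lipid mediators. Endothelial lipase, the product of Lipg, is a secreted phospholipase that releases fatty acids from the phospholipids of high-density lipoprotein. Smpdl3b encodes an enzyme of the acid sphingomyelinase family that is anchored to the outer cell membrane and is known to restrain Toll-like receptor signalling in macrophages. Pla2g7 encodes the secreted acetylhydrolase that inactivates platelet-activating factor (PAF), a lipid mediator that neutrophils both make and sense. Gm2a encodes the GM2 activator, a lysosomal cofactor that lifts a ganglioside out of the membrane so that hexosaminidase A can cut it.

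In mm9, the build of the counts, Smpdl3b lies on chromosome 4 at 132288881 to 132313167 on the minus strand, Pla2g7 on chromosome 17 at 43705047 to 43749150 on the plus strand and Gm2a on chromosome 11 at 54911617 to 54926531 on the plus strand (GENCODE vM1, all protein-coding). RefSeq (GRCm38.p6) gave promoter windows for 3 of the members. They are shown because Smpdl3b was nearly confined to LPS-primed PB neutrophils whereas Pla2g7 and Gm2a were, per library total, highest in PBS-primed PB neutrophils. Each is the 250 bases upstream of the transcription start, on the strand of the gene. The capitals mark matches, on either strand, to any of 5 motifs: the interferon-stimulated response element core (GAAA, any 2 bases, then GAAA), the NF-kB consensus, TTCNNNGAA (bound by STAT factors), TTGCNNAA (bound by C/EBP factors) and CACGTG (bound by basic helix-loop-helix factors).
Smpdl3b (chr4:132757172-132757421, minus strand): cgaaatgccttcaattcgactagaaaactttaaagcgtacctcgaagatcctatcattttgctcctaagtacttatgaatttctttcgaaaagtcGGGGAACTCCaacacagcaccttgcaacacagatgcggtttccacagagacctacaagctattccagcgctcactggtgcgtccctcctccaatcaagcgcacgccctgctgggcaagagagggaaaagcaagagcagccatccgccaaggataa
Pla2g7 (chr17:43568201-43568450, plus strand): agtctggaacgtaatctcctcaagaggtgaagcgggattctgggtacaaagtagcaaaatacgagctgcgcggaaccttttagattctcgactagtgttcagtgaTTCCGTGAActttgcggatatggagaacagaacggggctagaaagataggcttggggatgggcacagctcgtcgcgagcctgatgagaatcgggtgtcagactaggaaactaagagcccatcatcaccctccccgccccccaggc
Gm2a (chr11:55097735-55097984, plus strand): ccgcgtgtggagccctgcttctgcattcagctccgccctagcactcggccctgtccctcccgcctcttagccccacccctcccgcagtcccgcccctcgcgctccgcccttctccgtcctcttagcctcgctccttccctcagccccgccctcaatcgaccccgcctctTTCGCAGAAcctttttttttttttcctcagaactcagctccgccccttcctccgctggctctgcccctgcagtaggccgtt

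The window of Smpdl3b held 1 match, to the NF-kB consensus, at -155 to -146 from the start, and 3.90% of 32851 promoter windows of this length hold such a match. The windows of Pla2g7 (-145 to -137) and Gm2a (-81 to -73) each held 1 match to TTCNNNGAA, which 7.02% of all windows hold. GC content was 48.8% for Smpdl3b, 52.8% for Pla2g7 and 65.2% for Gm2a, beside a median of 52.4% over all windows. A match is a description of the letters and not evidence of binding.

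Neutrophil markers dominated every library, with 8 markers summing to between 120664 and 363115 CPM (UMIs of a gene divided by the total of its library, times 1e+06). The 8 monocyte or macrophage markers in the table summed to 406 to 956 CPM in the PB libraries and to 107 to 289 CPM in the BM libraries of both batches, so they were higher in PB as Pla2g7 was, and their part in its level was not tested. Of these, Ccr2, Cx3cr1, Ms4a7, Ms4a6c and Marco were at 0 in the LPS-primed PB and PBS-primed BM samples of batch 7. The sums in those samples (517 to 615 CPM in LPS-primed PB) thus came from the other markers alone. Only Cx3cr1 and Marco were at 0 in the PBS-primed PB samples of batch 7. Of the 1421 cells, 16 held 2 or more UMIs of Ccr2, Cx3cr1, Ms4a7, Ms4a6c and Marco together. Other blood cells left more RNA in PBS-primed PB than in LPS-primed PB libraries of batch 7. The 4 platelet markers summed to 288 to 423 CPM against 73.4 to 124 CPM (on batch 6 plates to 1139 to 2718 CPM against 1.41 to 49.6 CPM), the 6 T or NK cell markers in the table to 317 to 356 CPM against 1.72 to 1.87 CPM and the 4 B cell markers in the table to 80.1 to 108 CPM against 0.469 to 0.510 CPM. The 6 liver genes summed to 1519 to 2323 CPM against 852 to 884 CPM in batch 7 and to at most 1.08 CPM in the PB libraries of batch 6. On the PBS-primed PB plates of batch 6, where the liver genes were near 0, Pla2g7 held 1195 and 1317 CPM and Gm2a 638 and 492 CPM, against 1451 and 1287 CPM and 684 and 603 CPM in the samples of batch 7. Fewer cells of a type and less RNA per cell cannot be told apart in such sums, and the part of platelet, T, NK and B cell RNA in the member levels was not tested. Well barcodes were reused, each of 95 in more than 1 library, and no 2 cells had identical counts.

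The scale matters for any comparison that involves PB. TMM factors, which edgeR uses so that most genes do not differ between libraries, were 1.35 and 1.37 for PBS-primed and 0.75 and 0.69 for LPS-primed PB. Across all tested genes the median log2 fold change from PBS-primed to LPS-primed PB was -0.11 on the TMM scale, and it moved to -1.02 when only library size was used. CPM values below are scaled to library size alone and log2 differences are on the TMM scale, unless stated.

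Lipg was high after LPS in PB and, at a lower level, in BM. PBS-primed PB samples held 2.18 and 1.54 CPM, from 11 and 5 UMIs, and LPS-primed PB samples held 421 and 604 CPM. PBS-primed BM samples held 0.860 and 11.96 CPM and LPS-primed BM samples 35.6 and 64.8 CPM. Both LPS-primed PB samples were thus far above all others, the LPS-primed BM samples came next and the PBS-primed groups overlapped. Batch 6 gave the same order, with 426 and 548 CPM on the LPS-primed PB plates, 106 CPM on the single LPS-primed BM plate, 4.37 and 2.06 CPM on the PBS-primed PB plates and 0 to 2.89 CPM on the 4 PBS-primed BM plates. Summed over samples, the LPS-primed PB level was 264-fold the PBS-primed PB level (95% counting interval 162 to 461) and 10.1-fold the LPS-primed BM level (9.35 to 10.8). These intervals cover counting error only and not the spread between samples. The corresponding log2 differences were 8.98 (SE 1.13) and 3.94 (SE 0.873).

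The LPS response of Lipg in BM was the one comparison of this gene that could be tested, and its call changed with 1 library, with the tool and with the added plates. In the second PBS-primed BM sample a single cell held 88 of 100 Lipg UMIs, at 318 CPM of its own total. This cell, in the marrow cluster 0, held 44611 UMIs of the neutrophil marker S100a8, 32435 of S100a9 and 0 of Sod2. The log2 difference between LPS-primed and PBS-primed BM was 2.75 (SE 0.843), with an adjusted p of 0.486 (edgeR quasi-likelihood test). Without the second PBS-primed BM sample the log2 difference was 5.68. In an edgeR model of all plates that includes batch it was 4.40 with an adjusted p of 0.00123. That model takes each batch 6 plate as a replicate, although these plates carry no sample label and may share mice. Its p-values may therefore be too low. Over all alternatives the adjusted p lay between 0.00123 and 1 and the log2 difference between 1.86 and 5.68. Lipg was higher in 2 of 2 LPS-primed samples than in both PBS-primed samples and in the LPS-primed plate than in 4 of 4 PBS-primed plates. DESeq2 called it with an adjusted p of 0.0129, where it called 2.25% of all genes. The difference between PBS-primed PB and PBS-primed BM turned direction without the same sample, from a log2 difference of -2.29 to 0.64.

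**Figure D1:**
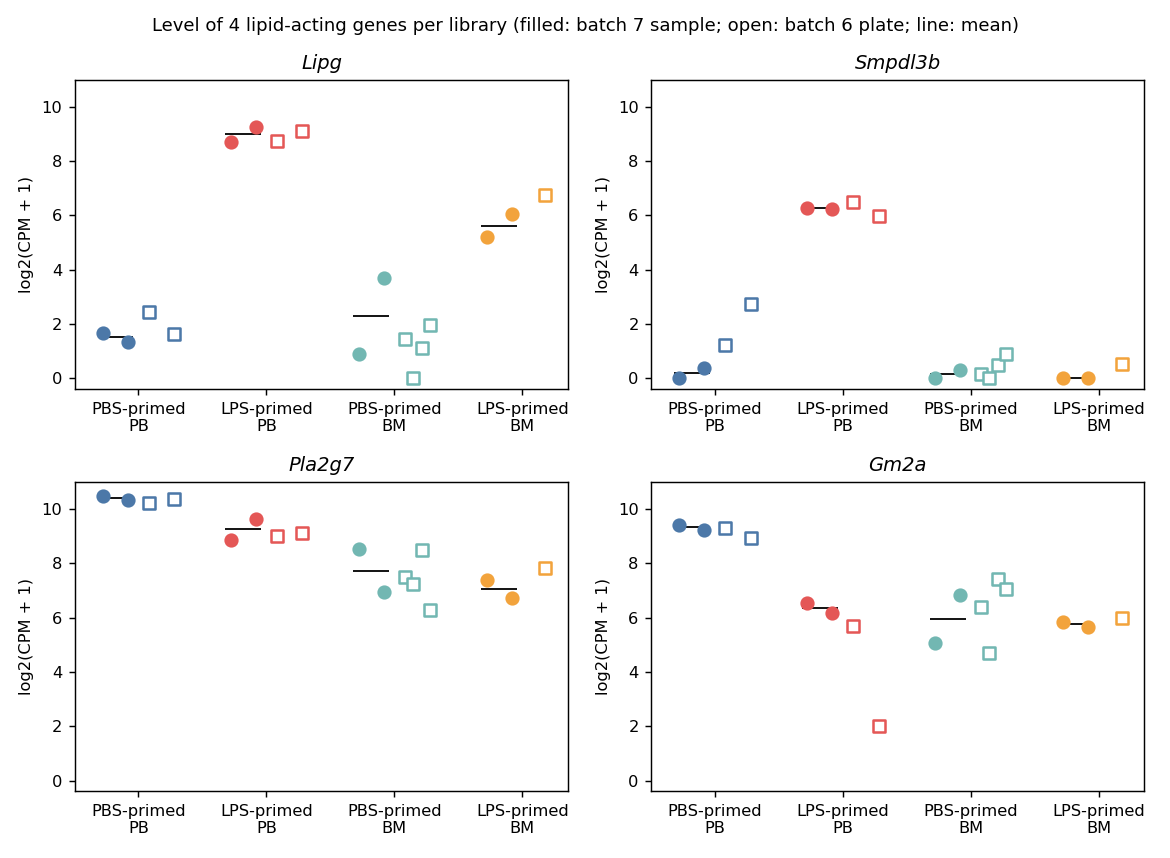
Level of each gene in every library as log2(CPM + 1) on the y axis, by group on the x axis, with batch 7 samples filled, batch 6 plates open and lines at the mean of the 2 samples. Lipg lies at 421 to 604 CPM in LPS-primed PB, at 35.6 to 106 CPM in LPS-primed BM and at most 4.37 CPM in PBS-primed PB, Smpdl3b is high in the 4 LPS-primed PB libraries (62.4 to 89.8 CPM), and Pla2g7 and Gm2a are highest in the 4 PBS-primed PB libraries.

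In single cells, Lipg was spread over most LPS-primed PB neutrophils. It was detected in 83 of 91 cells (91.2%) and 70 of 86 cells (81.4%) of the LPS-primed PB samples, against 11 of 90 (12.2%) and 5 of 86 (5.81%) PBS-primed PB cells. In BM it was detected in 7.23% and 14.1% of PBS-primed cells and in 37.4% and 44.6% of LPS-primed cells. Because deeper cells detect more genes, every cell was also thinned to 5000 UMIs. The shares were then 51.6% and 53.5% in LPS-primed PB, 1.11% and 2.33% in PBS-primed PB, 0% and 2.17% in PBS-primed BM and 9.89% and 14.1% in LPS-primed BM. LPS-primed PB and then LPS-primed BM were highest at equal depth too, and the PBS-primed groups overlapped. The 0 of 83 thinned cells allow, at 3 counts, a share of up to 3.61% of cells with a UMI at that depth, and 6 of these cells held a Lipg UMI before thinning.

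Levels among LPS-primed PB cells were uneven. The median cell held 80.0 and 85.5 CPM in the 2 samples while the upper quartile was at 476 and 542 CPM, and the 5 highest cells held 48.3% and 51.6% of the Lipg UMIs. On the batch 6 plates the median cell held 309 and 223 CPM and the 5 highest cells held 19.3% and 31.5%. In LPS-primed BM the 5 highest cells held 73.6% and 71.9% of the Lipg UMIs.

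Smpdl3b was nearly confined to LPS-primed PB neutrophils among these libraries. LPS-primed PB samples held 77.1 and 74.3 CPM, from 494 and 437 UMIs. PBS-primed PB samples held 0 and 1 UMI, PBS-primed BM samples 0 and 2 UMIs and LPS-primed BM samples 0 and 0 UMIs. Both LPS-primed PB samples were above all others, and the 3 other groups overlapped at 0 UMIs. On batch 6 plates the LPS-primed PB level was 89.8 and 62.4 CPM. The PBS-primed PB plates held 1.31 and 5.63 CPM, the PBS-primed BM plates 0 to 0.867 CPM and the LPS-primed BM plate 0.439 CPM. Summed over samples, 931 UMIs in LPS-primed PB against 1 in PBS-primed PB gave a ratio of 628 with a counting interval of 112 to 24813. This ratio rests on 1 UMI, and at a floor of 3 UMIs over the group it was 209. Against LPS-primed BM samples, with 0 UMIs, the LPS-primed PB level was at least 404-fold higher at the same floor. By the CPM values above, the batch 6 plates gave smaller folds in both comparisons. Against PBS-primed PB, where those plates held 6 and 30 UMIs, the folds lay below the counting interval. In BM both groups of samples lay under the floor of 3 UMIs, so no fold is given and no LPS effect was detectable at this depth.

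Smpdl3b came from fewer cells than Lipg. It was detected in 44 of 91 (48.4%) and 25 of 86 (29.1%) LPS-primed PB cells of batch 7 and in 74 of 95 (77.9%) and 67 of 91 (73.6%) in batch 6. At 5000 UMIs per cell these shares were 14.3%, 15.1%, 21.1% and 15.4%, so that the batches lay closer together at equal depth. The 5 highest cells held 79.8% and 71.9% of its UMIs in the batch 7 samples, and a single cell held 42.9% in the first of them.

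**Figure D2:**
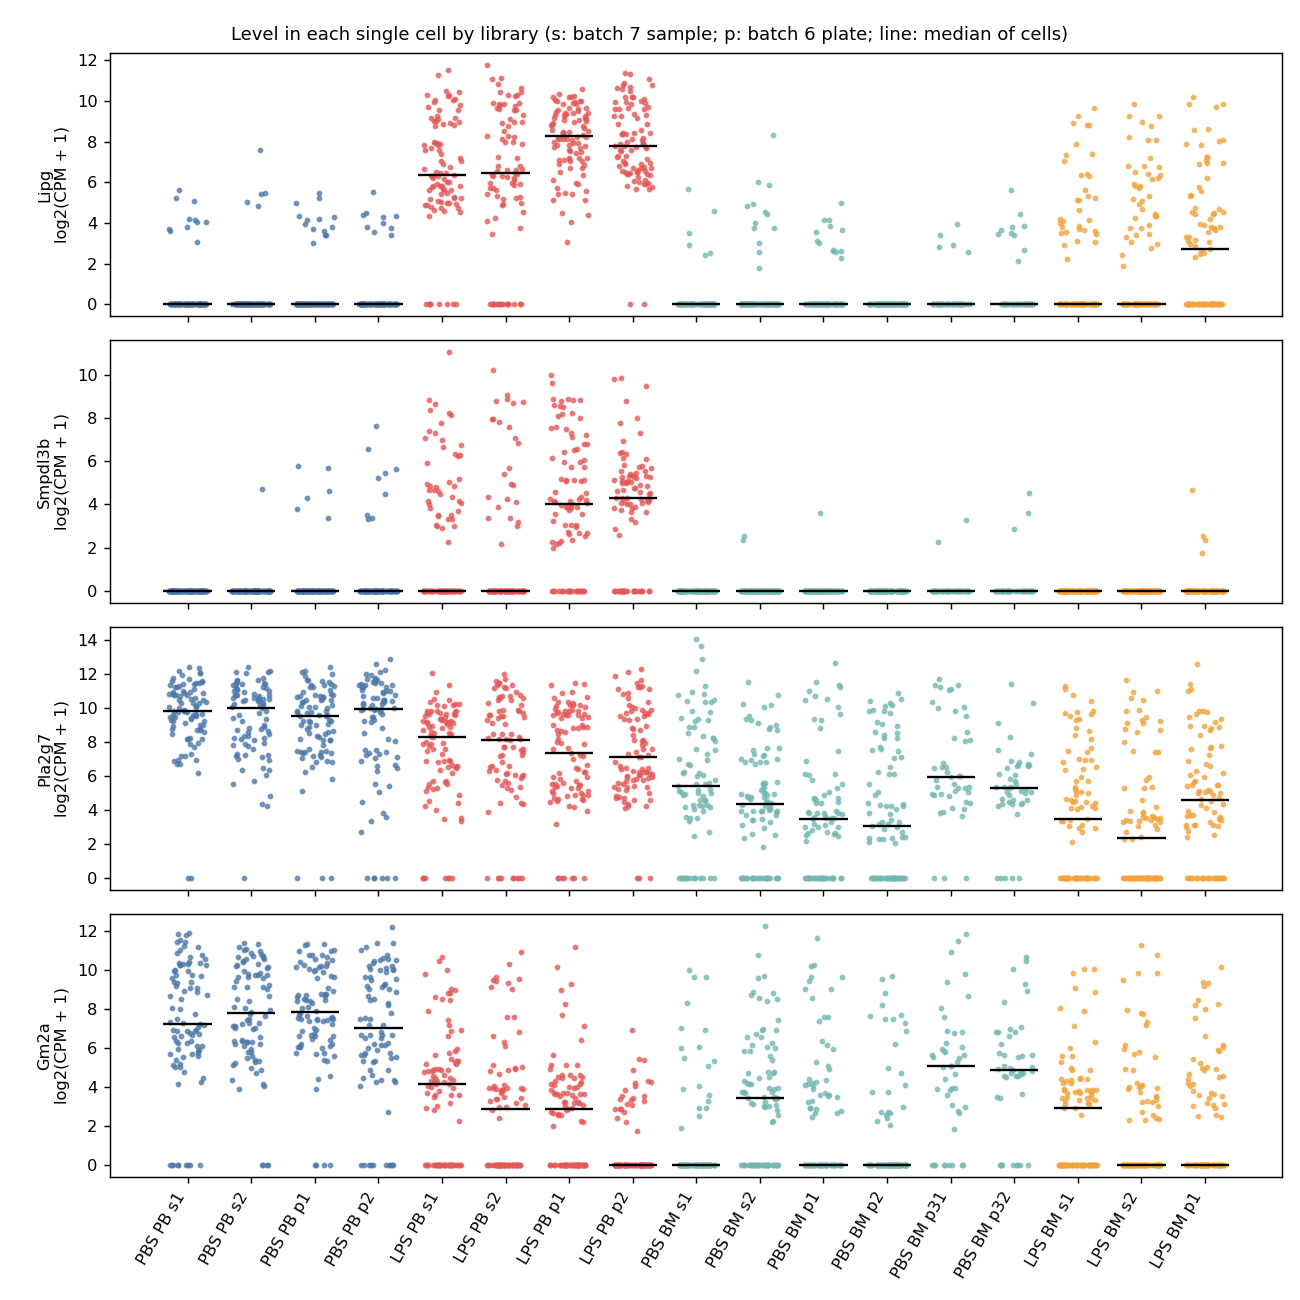
Level in each of the 1421 cells as log2(CPM + 1) on the y axis, by library on the x axis, with a line at the median cell. Most LPS-primed PB cells carry Lipg UMIs, Smpdl3b is carried by 29.1% to 77.9% of the cells of those libraries, and Pla2g7 is carried by 92.9% to 98.8% of PBS-primed PB cells.

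Pla2g7 was the member with the most UMIs and was higher in PB than in BM after either injection. PBS-primed PB samples held 1451 and 1287 CPM and LPS-primed PB samples 471 and 803 CPM. PBS-primed BM samples held 366 and 123 CPM and LPS-primed BM samples 167 and 105 CPM. The PB samples were all above the BM samples, and the PBS-primed PB samples were above the LPS-primed ones. On batch 6 plates it held 1195 and 1317 CPM in PBS-primed PB, 521 and 554 CPM in LPS-primed PB, 76.8 to 358 CPM in PBS-primed BM and 225 CPM in LPS-primed BM, with the same separation of PB from BM. The summed PBS-primed PB level was 5.93-fold the PBS-primed BM level (counting interval 5.71 to 6.16) and the LPS-primed PB level 4.66-fold the LPS-primed BM level (4.45 to 4.89). The corresponding log2 differences were 1.98 (SE 0.476) and 2.83 (SE 0.492).

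Whether Pla2g7 was lower after LPS in PB depended on the scale. Per library total, LPS-primed PB held 0.454 of the PBS-primed PB level (0.441 to 0.467), a log2 difference of -1.11. On the TMM scale the difference was -0.18 (SE 0.459) and the samples overlapped, with 630 and 1156 scaled CPM against 1077 and 936. At 5000 UMIs per cell, 90.0% and 87.2% of PBS-primed PB cells and 63.7% and 61.6% of LPS-primed PB cells held a Pla2g7 UMI. These shares are relative to the RNA of each cell, as is CPM. In BM the test of the LPS effect gave a log2 difference of -1.03 (SE 0.465) and an adjusted p of 0.610, and the groups overlapped. Over all alternatives its adjusted p was at least 0.192.

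Gm2a was high in PBS-primed PB neutrophils and low in the other 3 groups. PBS-primed PB samples held 684 and 603 CPM and LPS-primed PB samples 91.4 and 71.4 CPM. PBS-primed BM samples held 32.7 and 113 CPM and LPS-primed BM samples 56.2 and 50.1 CPM. Both PBS-primed PB samples stood above all others, while the LPS-primed PB samples lay within the range of PBS-primed BM. Batch 6 plates held 638 and 492 CPM in PBS-primed PB, 50.9 and 3.01 CPM in LPS-primed PB, 24.9 to 171 CPM in PBS-primed BM and 61.9 CPM in LPS-primed BM. The summed LPS-primed PB level was 0.125 of the PBS-primed PB level (counting interval 0.117 to 0.134), and the log2 difference was -2.08 (SE 0.534) with TMM and -2.99 with library size alone, so the direction was the same on both scales. PBS-primed PB was 8.54-fold above PBS-primed BM (8.01 to 9.10).

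In cells, Gm2a was lower after LPS in the share of cells as well as in the level. It was detected in 90.0% and 95.3% of PBS-primed PB cells and in 65.9% and 52.3% of LPS-primed PB cells, and at 5000 UMIs per cell in 61.1% and 58.1% against 25.3% and 19.8%. The median PBS-primed PB cell held 151 and 223 CPM and the median LPS-primed PB cell 16.6 and 6.39 CPM. In BM the test of the LPS effect gave a log2 difference of -0.66 (SE 0.517) and an adjusted p of 0.843, and without the second PBS-primed BM sample, in which 1 cell held 44.3% of the Gm2a UMIs, the difference was 0.54 (adjusted p over all alternatives at least 0.548).

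**Figure D3:**
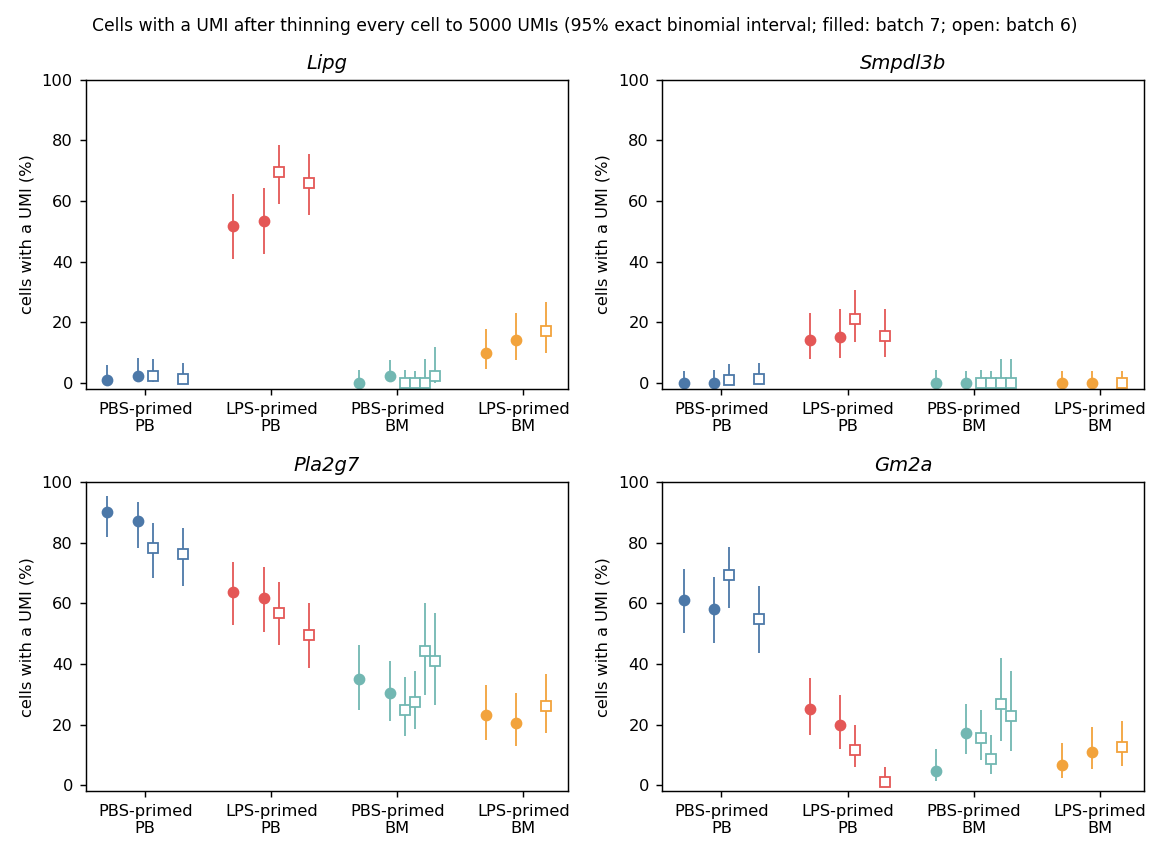
Share of cells with at least 1 UMI of each gene after thinning to 5000 UMIs per cell (y axis, percent, with 95% exact binomial intervals) by group (x axis), with batch 7 samples filled and batch 6 plates open. Lipg reaches 51.6% to 69.5% in LPS-primed PB and 9.89% to 17.0% in LPS-primed BM, and Gm2a lies at 54.8% to 69.3% in PBS-primed PB and at 1.10% to 25.3% in LPS-primed PB.

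The order of the levels thus differed by gene. For Lipg it was LPS-primed PB, LPS-primed BM and then the PBS-primed groups, whose samples overlapped. For Smpdl3b it was LPS-primed PB alone. For Pla2g7 it was PBS-primed PB, LPS-primed PB (these overlapped on the TMM scale) and then the BM groups, whose samples overlapped. For Gm2a it was PBS-primed PB and then the 3 other groups, where PBS-primed BM overlapped both LPS-primed groups, and LPS-primed PB was above LPS-primed BM in batch 7 and below it in batch 6. Smpdl3b had too few UMIs in BM to be tested there. Of the other 3 members, the LPS effect in BM passed the threshold for 0 with edgeR, with 2 (Lipg and Pla2g7) at an unadjusted p under 0.05, and for 1 (Lipg) with DESeq2. Over all tested genes, edgeR called 6 in that comparison (0.0708%, with 0.0236% higher and 0.0472% lower after LPS). DESeq2 called 191 of all tested genes (2.25%) there. The share of all genes at an unadjusted p under 0.05 is not given here.

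The authors' cluster labels divided the LPS-primed PB cells of batch 7, with 48 and 35 cells in cluster 1, shared with PBS-primed PB cells, and 42 and 42 cells in cluster 2, while 1 and 9 cells were in cluster 0. The clusters were made from the expression of these cells, so the values are a description. In the 2 samples, Lipg held 122 and 53.4 CPM in cluster 1 against 657 and 845 CPM in cluster 2, and Smpdl3b held 34.2 and 2.48 CPM against 111 and 106 CPM. Gm2a went the other way, with 195 and 196 CPM in cluster 1 against 13.3 and 25.5 CPM in cluster 2. Pla2g7 was alike in both clusters, with 496 and 829 CPM against 458 and 840 CPM. Cells of cluster 2 were deeper, with a median of 86255.5 and 71938.5 UMIs against 42450.5 and 37073. Of the 186 LPS-primed PB cells of batch 6, 185 were in cluster 2, on plates where Gm2a held 50.9 and 3.01 CPM.

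**Figure D4:**
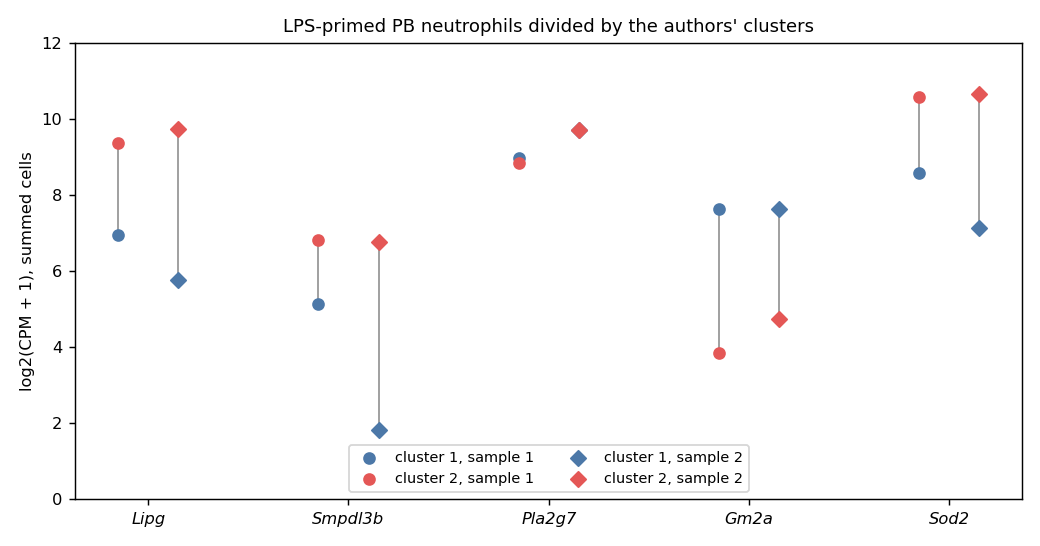
Summed level in LPS-primed PB cells of cluster 1 (blue) and cluster 2 (red) as log2(CPM + 1) on the y axis, for the 4 genes and Sod2 on the x axis, with circles for sample 1 and diamonds for sample 2. Lipg, Smpdl3b and Sod2 are higher in cluster 2 in both samples, Gm2a is higher in cluster 1, and Pla2g7 is close to equal.

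Sod2, the mitochondrial superoxide dismutase at the centre of the study, held 1013 and 1133 CPM in LPS-primed PB samples and 1.43 to 49.1 CPM in the other 6 samples. At equal depth its rank correlation with Lipg across the cells of a library was 0.35 and 0.48 in the batch 7 LPS-primed PB samples (91 and 86 cells) and 0.04 and 0.16 on the batch 6 plates (95 and 91 cells). Pairs of members had rank correlations between -0.22 and 0.24 in these 4 libraries, and cells of a library share plate and reagents. Few BM cells carried the label of cluster 1, with 5 to 11 in each of 7 libraries and 2 and 1 in the others. Summed within those 7 libraries these cells held 278 to 1653 CPM of Pla2g7 and 116 to 1227 CPM of Gm2a, against 47.3 to 261 and 21.1 to 118 CPM in the cluster 0 cells of the same libraries.

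Genes with a similar pattern over the 8 samples were ranked by Pearson correlation of log2 CPM on the TMM scale. They were drawn from 3372 genes with at least 50 CPM in their highest group. Correlations over batch 6 plates use log2(CPM + 1) scaled to library size alone, so the batches are not on the same scale. The 8 points are 4 groups of 2, so a high value mostly says that the order of the groups is the same. For Lipg the 5 highest were Stk24 (0.97), Oas2 (0.97), Mbd2 (0.97), Acod1 (0.97) and Id2 (0.97). Acod1, which makes itaconate, and Oas2, an antiviral enzyme induced by interferon, held 130 and 132 CPM and 166 and 150 CPM in LPS-primed BM, against 21.1 and 41.9 CPM and 45.0 and 52.0 CPM in PBS-primed BM. For Smpdl3b they were Gbp5 (0.99), Nfkbia (0.99), Arl6ip1 (0.99), Il1rn (0.99) and Hdc (0.99). Gbp5, an interferon-induced GTPase, was like Smpdl3b near 0 outside LPS-primed PB, with 114 and 59.5 CPM there and at most 0.397 CPM elsewhere. Over the 9 plates of batch 6 the correlation was between 0.40 and 0.87 for the 5 genes of Lipg and between 0.70 and 0.95 for those of Smpdl3b.

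For Pla2g7 the 5 highest were Cic (0.99), Fgg (0.98), Ssh2 (0.98), Csf3r (0.98) and Nlrp3 (0.97). Csf3r, the receptor for the granulocyte growth factor, held 6748 and 5743 CPM in PBS-primed PB samples, 2829 and 2505 CPM in LPS-primed PB samples and 1291 to 2249 CPM in BM samples. Fgg, a fibrinogen chain made by the liver, held 59.7 and 119 CPM in PBS-primed PB samples of batch 7, which also held the liver RNA named above, and over the batch 6 plates its correlation with Pla2g7 was -0.33. For Gm2a they were Sec14l1 (0.98), Nrm (0.97), Rpl21 (0.95), Slc40a1 (0.95) and H2-Eb1 (0.93). H2-Eb1, a class II antigen presentation gene of B cells and other presenting cells, had a correlation with Gm2a of 0.16 on batch 6, against 0.92 for Sec14l1. Among the members the correlation was 0.82 for Lipg with Smpdl3b (0.80 over the batch 6 plates), 0.65 for Pla2g7 with Gm2a (0.31) and -0.03 for Lipg with Pla2g7 (0.23).

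The closest relatives of the members were low or were present in every group. Lpl and Lipc, which encode lipoprotein lipase and hepatic lipase of the same family, held at most 4.38 and 2.16 CPM in any library. Lipa, the lysosomal acid lipase, held 14.0 to 94.1 CPM over the 8 samples. Smpdl3a, the sister gene of Smpdl3b, was detected in all samples at 60.5 to 326 CPM, with 186 and 67.8 CPM in LPS-primed PB. Smpd1, acid sphingomyelinase, held at most 18.05 CPM in the 8 samples. Pafah1b1, a subunit of the intracellular PAF acetylhydrolase, held 56.6 to 131 CPM and Pafah2, an intracellular enzyme of the same reaction, at most 5.41 CPM. None of these tested relatives passed the threshold in any comparison.

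The partners of the GM2 activator had other patterns. Hexa, the alpha subunit of hexosaminidase A, held 88.1 and 61.7 CPM in PBS-primed PB and 9.53 and 3.57 CPM in LPS-primed PB. In BM it held 134 and 189 CPM in PBS-primed and 101 and 108 CPM in LPS-primed samples. It was thus lowest in LPS-primed PB, and every BM sample was above every PB sample. It fell after LPS in PB by 2.62 on the log2 scale (SE 0.619, edgeR adjusted p = 0.0416), and LPS-primed PB was below LPS-primed BM by a log2 difference of -3.43 (SE 0.639, adjusted p = 0.0117). On batch 6 plates LPS-primed PB was lowest too, with 30.2 and 1.18 CPM, while PBS-primed PB (155 and 87.8 CPM) overlapped PBS-primed BM (90.5 to 166 CPM) and the LPS-primed BM plate held 57.8 CPM. The first call was lost (adjusted p 0.0521 to 0.169) without any 1 sample other than the first LPS-primed PB sample, and the second (0.0556 and 0.0673) without either LPS-primed BM sample. Psap, the precursor of the saposins, held 18.4 to 86.3 CPM, with no call.

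Of the 85 list genes tested, 5 (5.88%) passed the threshold for LPS-primed against PBS-primed PB, where 334 of 8478 genes (3.94%) did. Of these, 2 were higher after LPS, beside 3.47% of all genes, and 3 lower, beside 0.472%. With library size alone the split over all genes was 140 higher and 268 lower in place of 294 and 40. The median log2 fold change was 0.09 for the list genes and -0.11 for all genes. Besides Hexa, the genes that fell were Cerk, ceramide kinase, and Sptssa, a small subunit of serine palmitoyltransferase. Cerk held 63.9 and 32.4 CPM in PBS-primed PB and 0 UMIs in LPS-primed PB, at least 211-fold lower at a floor of 3 UMIs over the group (adjusted p = 0.0441), and of the 25 of 176 PBS-primed PB cells that held it, 5 carried 95.3% of its UMIs. Sptssa held 36.5 and 224 CPM against 1.25 and 0.850 CPM (adjusted p = 0.0211), and 1 cell held 69.9% of its PBS-primed PB UMIs. On batch 6 plates both genes were also lower in LPS-primed PB. There Cerk held only 9.17 and 2.06 CPM in PBS-primed PB, against 0.0832 and 0 CPM in LPS-primed PB. The bound of 211-fold thus rests on the batch 7 samples alone. Sptssa held 45.0 and 33.8 CPM against 1.08 and 5.58 CPM on these plates. Sptssa lost its call without the second PBS-primed PB sample (0.293) or the second LPS-primed PB sample (0.0673), and Cerk without any 1 sample (0.0512 to 0.152) other than the second PBS-primed BM sample.

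The list genes that rose after LPS in PB were Plin2, which coats lipid droplets, and Cers6, a ceramide synthase. Plin2 held 116 and 70.4 CPM in PBS-primed PB and 206 and 254 CPM in LPS-primed PB (log2 fold change 2.22, SE 0.534, adjusted p = 0.0448), and on batch 6 plates 55.3 and 11.6 CPM against 293 and 501.2 CPM. Cers6 held 133 and 114 CPM against 308 and 289 CPM (2.18, SE 0.364, adjusted p = 0.00624). On the batch 6 plates Cers6 went the other way, with 294 and 259 CPM in PBS-primed PB and 92.7 and 145 CPM in LPS-primed PB, and with both batches it was no longer called (adjusted p = 0.116). With library size alone both genes kept their direction without a call (log2 fold changes of 1.3 for Plin2 and 1.26 for Cers6, adjusted p = 0.188 and 0.0777). Cers6 lost its call without either PBS-primed PB sample (0.0581 and 0.0893), and Plin2 without either PBS-primed PB sample, the second LPS-primed PB sample or either LPS-primed BM sample (0.0697 to 0.295).

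For PBS-primed PB against PBS-primed BM, 4 of the 85 list genes (4.71%) passed, all lower in PB, where 221 of 8478 genes (2.61%) passed, 1.18% higher and 1.43% lower. The list median was -0.14 and that of all genes 0.15. Lta4h, which makes leukotriene B4, held 25.8 and 7.41 CPM in PBS-primed PB against 197 and 504 CPM in PBS-primed BM (log2 fold change -4.91, adjusted p = 0.00832). Alox5, the first enzyme of leukotriene synthesis, held 149 and 130 CPM against 268 and 388 CPM (-1.76, adjusted p = 0.0402). Degs1, a ceramide desaturase, held 157 and 43.8 CPM against 623 and 546 CPM (-3.05, adjusted p = 0.00949), and Dgat1, which makes triglyceride, held 193 and 264 CPM against 440 and 542 CPM (-1.63, adjusted p = 0.0174). On batch 6 plates Lta4h, Degs1 and Dgat1 were lower in each PB plate than in each BM plate and Alox5 overlapped. Degs1 kept its call without any 1 sample. Lta4h lost it without the second PBS-primed PB sample (0.0897), Dgat1 without either PBS-primed PB sample or the second PBS-primed BM sample (0.0709 to 0.159), and Alox5 without those 3 or either LPS-primed BM sample (0.0735 to 0.244). With library size alone neither Dgat1 (0.0847) nor Alox5 (0.118) passed.

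For LPS-primed PB against LPS-primed BM, 3 of the 85 (3.53%) passed, where 316 of 8478 genes (3.73%) did, 3.27% higher and 0.46% lower, with a list median of -0.25 and -0.07 for all genes. Besides Hexa, Lta4h was lower in PB, with 9.06 and 27.5 CPM against 257 and 260 CPM (-3.21, adjusted p = 0.0383). Ptafr, the receptor for the mediator that the Pla2g7 product inactivates, was higher, with 157 and 198 CPM against 92.8 and 36.2 CPM (2.06, adjusted p = 0.0446). In PBS-primed samples Ptafr held 220 and 234 CPM in PB and 84.6 and 90.4 CPM in BM, with no call (adjusted p = 0.365). Ptafr lost its call without either PBS-primed PB sample, the second LPS-primed PB sample or the second LPS-primed BM sample (0.0844 to 0.375) and with library size alone (0.160), and Lta4h without the first LPS-primed PB sample or either LPS-primed BM sample (0.0663 to 0.116) and in the model of all plates (0.0637). Within BM the LPS effect passed for 0 list genes, with 5 at an unadjusted p under 0.05. With DESeq2 it passed for 0 list genes, where 2.25% of all genes passed. The difference of the LPS effects between PB and BM passed for 0 list genes where 127 of 8478 (1.5%) did, 1.45% higher and 0.0472% lower. For it, 11 list genes had an edgeR unadjusted p under 0.05, a cut-off for which no share of all genes is given here. With DESeq2, 6 list genes passed, where 5.74% of all genes did. These comparisons share groups of samples and are not independent of each other.

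**Figure D5:**
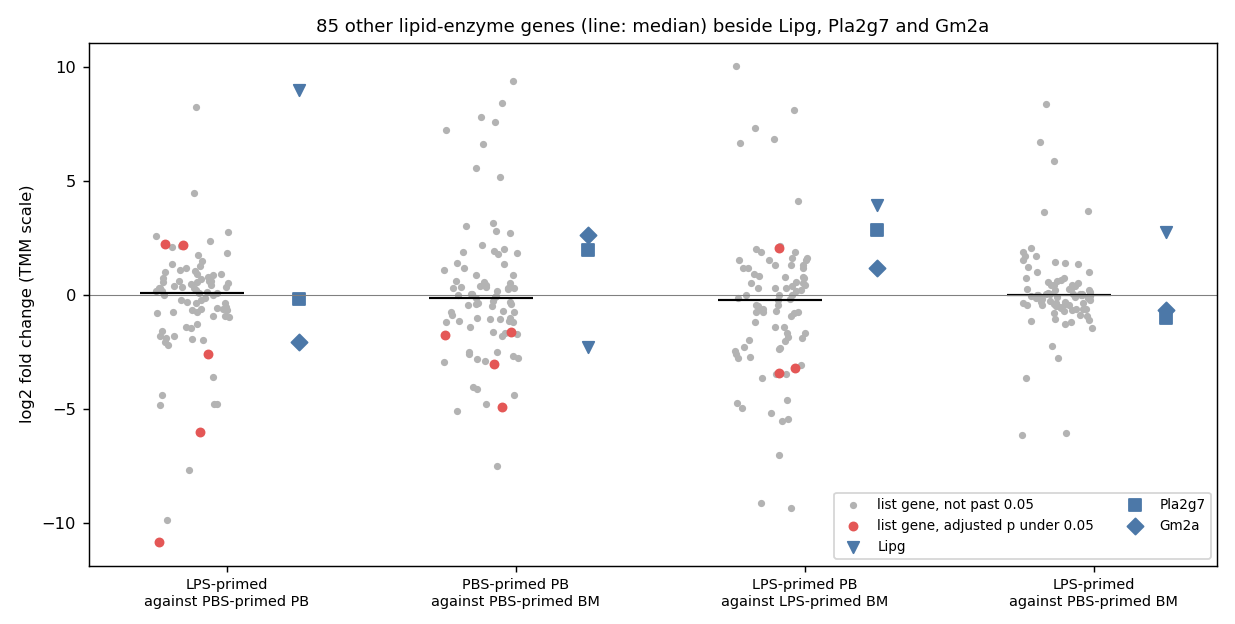
Log2 fold change on the TMM scale (y axis) of the 85 other lipid-enzyme genes in 4 comparisons (x axis), with red points past an adjusted p of 0.05, a line at the median and blue symbols for Lipg, Pla2g7 and Gm2a. Smpdl3b is left out because most of its groups hold 0 to 2 UMIs, and the medians lie between -0.25 and 0.09.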

How the data were processed

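Single neutrophils were sequenced by SCRB-seq. Per the submitters' processing notes and the methods, the authors trimmed reads with cutadapt 1.15, aligned them to mm9 with STAR 2.6.0a, removed duplicates by UMI and counted unique reads per gene with HTSeq 0.11.2, keeping cells within limits on genes, UMIs and spike-in share. The gene annotation they counted on is not given in the sources used here. The deposited values are raw UMI counts per gene and cell, beside an annotation with batch, plate and the authors' clusters. The members and the lipid-enzyme lists were chosen with earlier results of these data known.

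UMIs were summed per labelled sample, genes seen in at least 10 cells were kept, and the sums were tested in edgeR 4.0.16 (R 4.3.3; filterByExpr, TMM, glmQLFit and glmQLFTest, 4 groups, 8 samples, no covariate) with two-sided Benjamini-Hochberg adjusted p-values at 0.05 over all 8478 genes. Standard errors are the log2 fold change divided by the square root of F. Shares of cells have exact Clopper-Pearson intervals at 95%. Ratios of summed UMIs have intervals for counting error only. Thinning drew 5000 UMIs from each cell. Tested on simulated counts for LPS-primed against PBS-primed PB (8133 genes), the model recovered 36% of 4-fold rises, 24% of falls to 0.25-fold and 96% of 16-fold rises, with 5 false calls. The common dispersion was 1.06. The 2 samples of a group differed beyond counting noise (chi-square per degree of freedom 59.9 to 106), so none was taken as a duplicate.

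Named genes were the 4 members, fixed relatives (Lpl, Lipc, Lipa, Smpdl3a, Smpd1, Pafah1b1, Pafah2, Psap and Hexa, with 1 more not reported here), called list genes whose higher group averaged 20 CPM or more (at most 3 per list and direction), the 5 genes most correlated with each member, and Sod2. Ccr2, Cx3cr1, Ms4a7, Ms4a6c, Marco, S100a8 and S100a9 are markers and were named for those checks. Alternatives covered the tool (DESeq2 1.42.0), scaling, filter, thinning, cells with monocyte markers, a replicate block, each sample left out and the plates of both batches with batch as a term. One exclusion, of cells with 2 or more UMIs of Ccr2, Cx3cr1, Ms4a6c, Ms4a7 or Marco, was chosen after seeing the data, since the planned one (2 or more of all markers) covered 799 of 1421 cells.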

Additional observations from a re-analysis of the deposited data

Results flagged for a closer look

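3 list genes named above moved in opposite directions after LPS in PB and BM on the TMM scale, with both LPS-primed samples above both PBS-primed samples in PB and below them in BM. The log2 fold changes were 0.75 and -0.51 for Alox5, 0.99 and -0.36 for Degs1 and 0.57 and -0.64 for Ptafr. The test of the difference between both effects gave edgeR adjusted p-values of 0.347, 0.417 and 0.474, so that none passed. With library size alone the changes in PB were -0.18, 0.08 and -0.36 for the same genes, and the opposite directions of Alox5 and Ptafr were gone. No group has the 4 samples needed to look for a sample far from the others.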

How the results depend on the processing

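With 2 samples per group and a common dispersion of 1.06, list calls depended on the tool and on single samples. The model with the plates of both batches counts plates that may share mice as replicates, so its counts may be too high. How many of all genes that model called is not given here, so its list counts have no background to be read against. DESeq2 called between 5.74% and 12.3% of all genes in the comparisons other than the LPS effect in BM (2.25%). Its higher list counts thus came with higher counts over all genes. Comparing LPS-primed with PBS-primed PB, 5 list genes passed, against 12 with DESeq2, 10 with the plates of both batches, 1 with thinned cells, 1 without cells with 2 or more monocyte markers and 0 to 5 with a sample left out. For PBS-primed PB against PBS-primed BM, 4 passed, against 15, 10 and 2 with DESeq2, the plates of both batches and without those cells, and 1 to 5 with a sample left out. For LPS-primed PB against LPS-primed BM, 3 passed, against 18 with DESeq2, 8 with the plates of both batches and 0 to 4 with a sample left out. For the difference of the LPS effects, 0 passed, against 6 with DESeq2, 2 with the plates of both batches and 0 to 1 with a sample left out. For the LPS effect in BM, 0 list genes passed under every alternative, and 0 of the 3 members with enough UMIs passed, against 1 (Lipg) with DESeq2, 1 with the plates of both batches and 0 to 1 with a sample left out. Lipg between PBS-primed PB and PBS-primed BM ranged from -3.18 to 0.64 with a sample left out, reversing to 0.64 without the second PBS-primed BM sample. The other causes of these shifts were not tested.

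Of all 8478 genes, DESeq2 called 1047, 942, 930, 191 and 487 in the 5 comparisons against 334, 221, 316, 6 and 127 with edgeR. With library size alone the calls for LPS-primed against PBS-primed PB were 140 higher and 268 lower, against 294 higher and 40 lower with TMM, those for PBS-primed PB against PBS-primed BM 213 and 84 against 100 and 121, and those for LPS-primed PB against LPS-primed BM 157 and 106 against 277 and 39.

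The labels give the same replicate numbers in each group, and the deviations of same-numbered samples correlated at -0.02 to 0.03. No pairing was visible, but differences between the cells drawn could hide one. Whether the numbers pair samples is therefore not known. With a replicate block, the list count for LPS-primed PB against LPS-primed BM was 6 in place of 3, and the other counts were 5, 4, 0 and 0, and 0 for the members.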
